A study of Homo sapiens with 4 samples.

Results

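Copying a genome once per cell cycle needs a fixed series of protein assemblies. In late mitosis and G1 the origin recognition complex, CDC6 and CDT1 load the MCM2 to MCM7 helicase onto origins. At the start of S phase CDC45 and the GINS complex turn it into an active helicase, and primase, polymerases, the PCNA clamp and its RFC loader then build the new strands. Most of these genes are known targets of E2F transcription factors, so their transcripts are abundant in dividing cells and scarce in arrested ones. TGF-beta is known as a brake on this programme in normal epithelium, a brake that many carcinoma lines have lost in part.

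The genes described here are 44 genes of DNA replication and repair, chosen by name: every probe set whose annotated symbol is exactly a listed gene was taken, 83 of 54675 probe sets on the array. The list was chosen with earlier results of these data known, so shares of it set beside those of other genes are descriptions only. Of the 44 genes, 43 were measured. BRCA2 was not analysed here. The cells were SCP2, a human breast cancer line derived from MDA-MB-231 and known for its colonisation of bone. The 4 groups were cells with a DLC1 overexpression construct treated with TGF-beta, vector control cells treated with TGF-beta, untreated cells with the DLC1 construct, and untreated vector control cells. DLC1 is known as a tumour suppressor, and the study's title concerns bone metastasis. The sources used here give neither the dose or time of TGF-beta nor how the DLC1 line was made or whether it is a clone.

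Each group was measured on 1 array, so no value has a replicate, no difference has an error, and no p-value is given. Values are deposited intensities in arbitrary units on a linear scale, with a median of 0.38 to 0.39 on each array. Differences are on the log2 scale, where 0.58 is 1.5-fold, and a gene was counted as lower or higher from 1.5-fold on. Each gene is read from its brightest probe set. All 43 measured members were bright enough to be kept, among 13137 of 19775 genes. The lowest member value was 0.76, where rounding to 2 decimals moves a log2 value by 0.01 at most. The only yardstick for scatter in this design is how far the TGF-beta differences of the 2 cell types part: the gap between them had an SD of 0.24 over all kept genes, which mixes real change with error.

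The labels were checked first. One DLC1 probe set read 3.64 on the array labelled DLC1 and 2.51 on the vector array with TGF-beta, and 3.38 and 1.77 in untreated cells. Another read 1.69 and 2.41 with TGF-beta, and 1.44 and 1.79 in untreated cells. The probe sets of the targeted gene disagree, so the cells are called "labelled DLC1" throughout. Of 7 markers of the MDA-MB-231 lineage, VIM and CD44 read at least 160.3 and 56.33 on every array, and SPARC read 0.29 to 0.72. Below the floor of 0.38 that a gene had to reach to be kept lay the luminal markers PGR, CDH1 and FOXA1 (3 of 10 luminal markers), the leukocyte markers PTPRC and CD3E (2 of 6), and 5 of 9 endothelial and stromal markers, among them CDH5, VWF and LUM. Others were above it, such as KRT18 at 56.83 to 65.09, KRT19 at 11.21 to 16.56, HLA-DRA at 6.40 to 9.40 and CD14 at 1.08 to 1.67; their part in the results was not tested. In a culture, fewer cells in S phase and less transcript in each cell cannot be told apart.

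**Figure D1:**
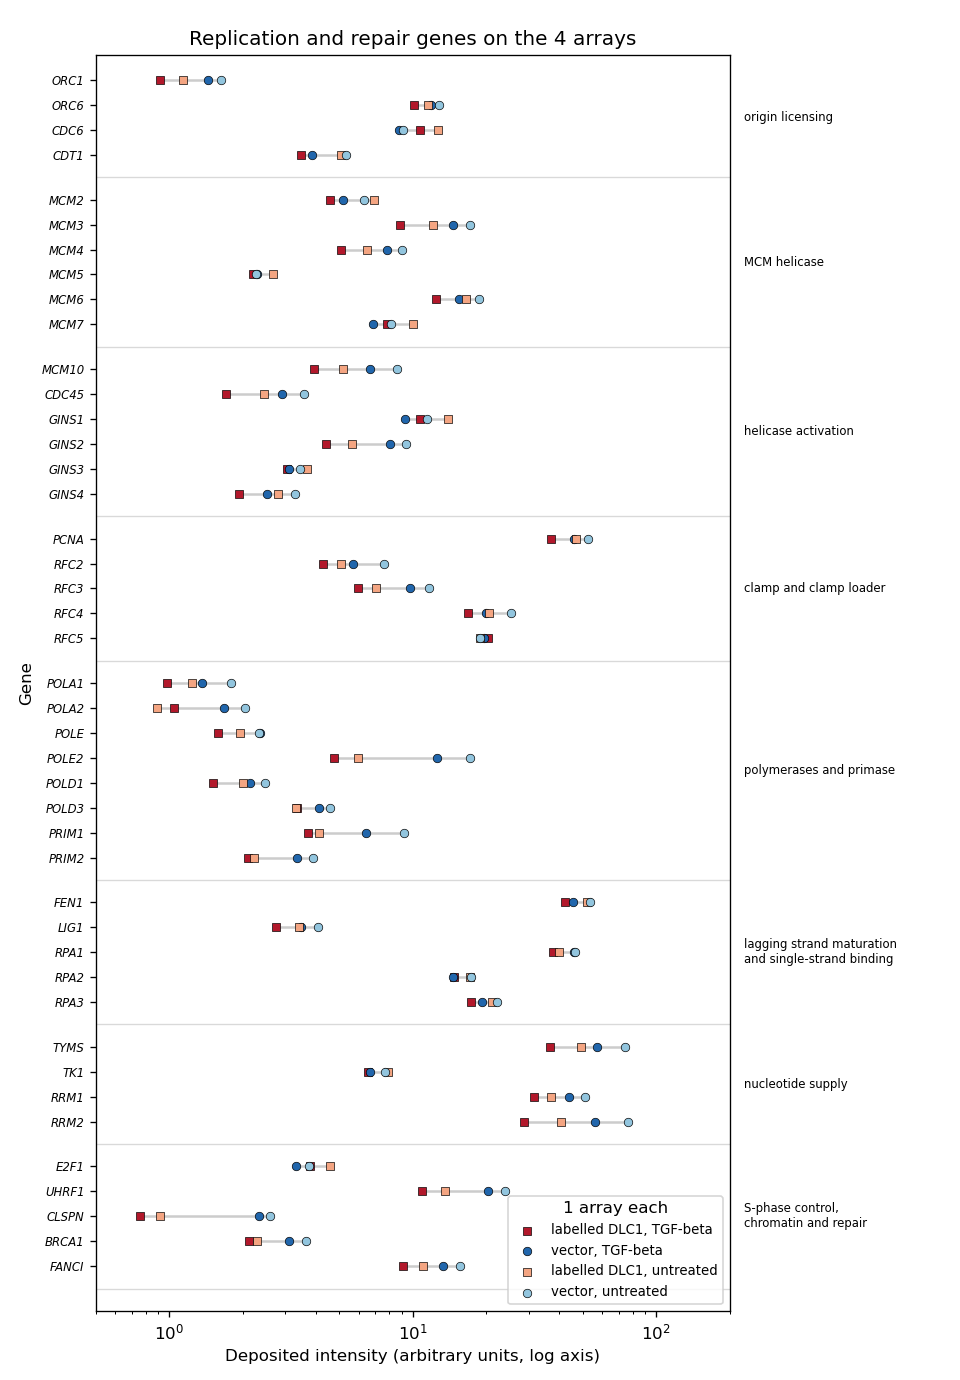
Deposited intensity (arbitrary units, log axis) of the 43 measured genes, in rows grouped by role, with 1 marker per array: squares for arrays labelled DLC1, circles for vector arrays, dark with TGF-beta and light without it. In 30 of the 43 genes the untreated vector array is the highest and the TGF-beta treated array labelled DLC1 the lowest.

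Across the 4 arrays the replication genes formed a ladder. In 30 of 43 members (69.8%) the untreated vector array was highest and the TGF-beta treated array labelled DLC1 lowest, an order found in 18.2% of all kept genes. RRM2, the small subunit of ribonucleotide reductase, which makes deoxynucleotides, shows it: it read 28.53 in labelled DLC1 cells with TGF-beta, 56.07 in vector cells with TGF-beta, 40.67 in untreated labelled DLC1 cells and 76.4 in untreated vector cells. Both arrays labelled DLC1 lay below both vector arrays in 26 members (60.5%, against 33.1% of kept genes). Both treated arrays lay below both untreated arrays in 13 members (30.2%, against 14.3%).

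Labelled DLC1 cells were next compared with vector cells. With 1 array per group and DLC1 probe sets that disagree, an effect of added DLC1 cannot be told apart from other differences between the lines. Without TGF-beta, 35 of 43 members lay below 0, against 53.5% of kept genes, with a median difference of -0.30 against -0.03. Of the members, 13 were lower by at least 1.5-fold, against 8.89% of kept genes, and 0 were higher, against 5.84%. With TGF-beta, which uses a separate pair of arrays, 37 members lay below 0 (against 52% of kept genes), the median was -0.41 (all kept genes -0.02), 15 were lower by at least 1.5-fold (against 6.71%) and 0 were higher (against 5.91%). In both states 11 of 43 members (25.6%) were lower, against 5.04% of kept genes: CLSPN, POLE2, RRM2, PRIM1, POLA2, UHRF1, GINS2, MCM10, PRIM2, RFC3 and TYMS. At 2-fold, 4 members were lower without TGF-beta (against 2.34%), 2 with it (against 1.64%) and 2, CLSPN and POLE2, in both (against 1.13%).

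**Figure D2:**
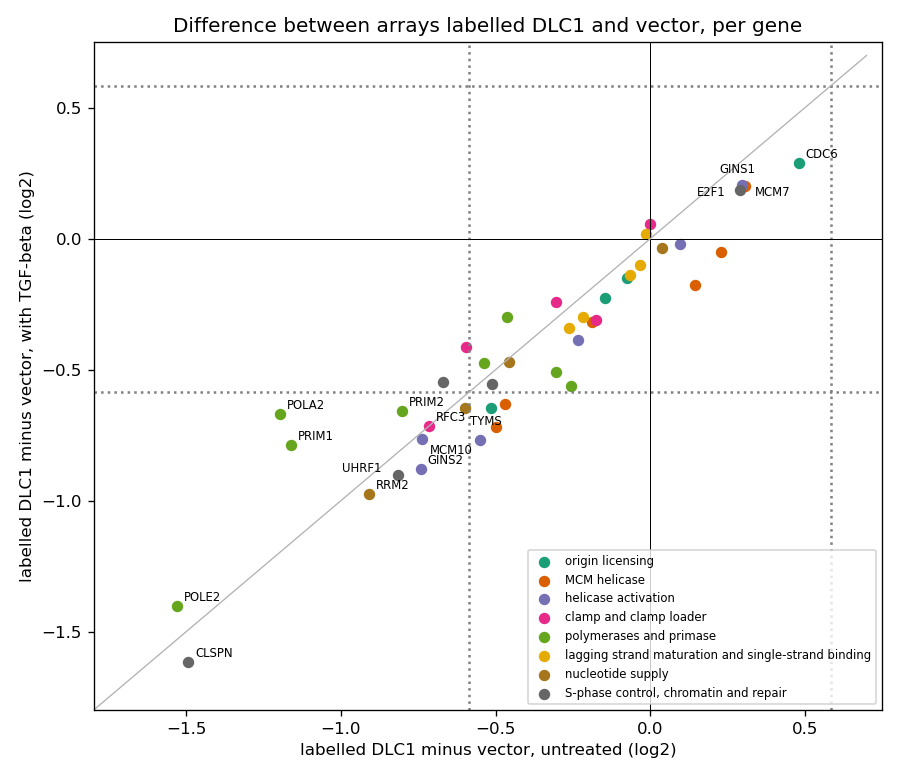
Log2 difference between arrays labelled DLC1 and vector for each of 43 genes, without TGF-beta (horizontal axis) and with it (vertical axis), coloured by role; dotted lines mark 1.5-fold and the grey line equal differences. CLSPN and POLE2 lie farthest down, 11 genes pass 1.5-fold in both states, and CDC6, MCM7, GINS1 and E2F1 lie above 0 in both.

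All 8 genes of the replicative polymerases and primase lay below 0 in both states (against 42.7% of kept genes), with medians of -0.67 in untreated cells and -0.61 with TGF-beta. Of the 8, 4 passed 1.5-fold in both (against 5.04%). With all sets of a gene averaged the untreated median was -0.43, and with sets ending in _x_at or _s_at left out 7 of 8 lay below 0. POLE2, the second subunit of DNA polymerase epsilon, read 5.93 in untreated labelled DLC1 cells and 17.11 in untreated vector cells, and 4.73 in treated labelled DLC1 cells and 12.52 in treated vector cells. Its differences of -1.53 (untreated) and -1.40 (treated) correspond to 2.89-fold and 2.65-fold lower levels, and both labelled DLC1 values lie far under both vector values. POLE, the catalytic subunit of the same enzyme, gave -0.26 (untreated) and -0.56 (treated).

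PRIM1, the catalytic primase subunit that starts each new strand with an RNA primer, read 4.12 in untreated labelled DLC1 cells and 9.21 in untreated vector cells, and 3.71 in treated labelled DLC1 cells and 6.4 in treated vector cells. Its partner PRIM2 read 2.23 in untreated labelled DLC1 cells and 3.89 in untreated vector cells, and 2.11 in treated labelled DLC1 cells and 3.33 in treated vector cells. Both primase subunits were thus lower in each state: on the log2 scale PRIM1 was lower by 1.16 (untreated) and 0.79 (treated), and PRIM2 by 0.80 (untreated) and 0.66 (treated). POLA2, the regulatory subunit of polymerase alpha, read 0.89 in untreated labelled DLC1 cells and 2.04 in untreated vector cells, and 1.05 in treated labelled DLC1 cells and 1.67 in treated vector cells. Another probe set of POLA2 gave 0.28 (untreated) and 0 (treated), so the call rests on 1 probe set, and with all sets averaged the differences were -0.33 and -0.25, short of 1.5-fold. That other set read only 0.46 to 0.57, close to the floor of 0.38, and the average also includes a set below the floor. POLA1, the catalytic subunit, gave -0.54 (untreated) and -0.47 (treated), and the polymerase delta genes POLD1 and POLD3 gave -0.30 and -0.46 in untreated cells, and -0.51 and -0.30 in treated ones. The second POLD3 set, dimmer at 0.86 to 1.03, gave -0.03 (untreated) and 0.11 (treated).

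Among genes of S-phase control, CLSPN, which encodes claspin, an adaptor that carries the stalled-fork signal from ATR to CHK1, read 0.92 in untreated labelled DLC1 cells and 2.59 in untreated vector cells, and 0.76 in treated labelled DLC1 cells and 2.33 in treated vector cells. The differences were -1.49 (untreated) and -1.62 (treated), a 2.82-fold and a 3.07-fold lower level, and both labelled DLC1 arrays lay under both vector arrays. Its 3 other sets were below the floor, and with all 4 averaged the differences were -0.71 and -0.87. UHRF1, which brings the maintenance methyltransferase to newly copied DNA, read 13.6 in untreated labelled DLC1 cells and 23.92 in untreated vector cells, and 10.92 in treated labelled DLC1 cells and 20.42 in treated vector cells. BRCA1, which acts in homologous recombination, gave -0.67 in untreated cells, past 1.5-fold, and -0.55 in treated ones. Its second set gave -0.49 and -0.14, and the untreated difference fell just short of 1.5-fold, at -0.58, with all sets averaged or with housekeeping centring. FANCI, a Fanconi anaemia protein of crosslink repair, gave -0.51 (untreated) and -0.55 (treated), and another of its sets gave -1.12 and -0.97 in the same states. With all FANCI sets averaged both differences passed 1.5-fold, at -0.71 and -0.73.

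E2F1 itself, the transcription factor that drives many of these genes, went the other way. It read 4.58 in untreated labelled DLC1 cells and 3.74 in untreated vector cells, and 3.77 in treated labelled DLC1 cells and 3.31 in treated vector cells. These are differences of 0.29 and 0.19 that stay short of 1.5-fold. The second E2F1 set gave 0.12 (untreated) and -0.01 (treated). CDC6, MCM7 and GINS1 also lay above 0 in both states. CDC6, a licensing factor, read 12.71 in untreated labelled DLC1 cells and 9.1 in untreated vector cells, and 10.72 in treated labelled DLC1 cells and 8.78 in treated vector cells. Its differences were 0.48 (untreated) and 0.29 (treated), and those of its second set 0.48 and 0.39. MCM7 gave 0.31 (untreated) and 0.20 (treated), and GINS1, which has a single set, 0.30 and 0.21 in the same states.

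The promoters of the 3 members with the lowest mean difference between labelled DLC1 and vector cells that have an E2F-like match are shown, so that the match can be seen beside genes that were lower in both states. Each run holds 250 bases before the annotated start and 10 from it on, from RefSeq on GRCh38.p14, read along the gene's strand. Capitals mark the match to an E2F-like sequence. CLSPN lies on the minus strand at chr1:35769969-35770228, POLE2 on the minus strand at chr14:49688205-49688464 and POLA2 on the plus strand at chr11:65261712-65261971.
CLSPN: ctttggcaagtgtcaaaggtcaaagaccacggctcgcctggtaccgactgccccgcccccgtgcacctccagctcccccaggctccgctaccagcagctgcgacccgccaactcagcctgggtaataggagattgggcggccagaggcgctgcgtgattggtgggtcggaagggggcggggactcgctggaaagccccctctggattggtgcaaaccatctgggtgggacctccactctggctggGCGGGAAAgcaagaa
POLE2: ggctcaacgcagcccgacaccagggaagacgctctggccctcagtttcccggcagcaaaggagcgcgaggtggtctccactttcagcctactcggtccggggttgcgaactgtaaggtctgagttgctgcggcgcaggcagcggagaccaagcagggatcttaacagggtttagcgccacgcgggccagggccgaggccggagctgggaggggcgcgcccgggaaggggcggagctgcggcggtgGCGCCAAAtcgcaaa
POLA2: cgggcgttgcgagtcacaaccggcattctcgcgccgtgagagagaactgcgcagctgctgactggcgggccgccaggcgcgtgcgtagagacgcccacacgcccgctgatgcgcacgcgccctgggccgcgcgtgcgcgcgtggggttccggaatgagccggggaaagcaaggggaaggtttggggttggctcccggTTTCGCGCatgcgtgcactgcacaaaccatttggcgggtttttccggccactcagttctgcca

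The matches begin 5 bases before the start in CLSPN and POLE2, where they read on the opposite strand, and 53 bases before it in POLA2. The sequences searched, on both strands from 250 bases before to 50 after each gene's start, were TTTCCCGC, TTTGGCGC, TTTCGCGC and TTTGCCGC, and no sequence searched contains another. Of the members, 37 have an entry, and 20 of these (54.1%) hold a match, against 3.33% of all 27305 promoters. MCM4, MCM5, GINS4, POLD3, RPA2, RPA3 and FANCI have no entry. CCAAT was found in 21 members' promoters (56.8%, against 35.7%), and TTTGAA, a letter string of mitotic promoters, in 1 (2.70%, against 15.4%). In the 22 mitosis genes listed for comparison, 18 of which have an entry, TTTGAA was found in 11 (61.1%) and an E2F-like match in 1 (5.56%). The 20 matched genes had median differences between labelled DLC1 and vector cells of -0.26 in untreated cells and -0.41 in treated ones, and the 16 measured genes without a match -0.49 and -0.49. CDC6, GINS1, MCM7 and E2F1, above 0 in both states, all hold a match.

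Among the 6 helicase activation genes, 2 were lower by at least 1.5-fold in untreated cells (against 8.89% of kept genes) and 3 in treated ones (against 6.71%). GINS2, a subunit of the GINS complex, read 5.63 in untreated labelled DLC1 cells and 9.42 in untreated vector cells, and 4.39 in treated labelled DLC1 cells and 8.07 in treated vector cells. MCM10, which stabilises the active helicase, read 5.15 in untreated labelled DLC1 cells and 8.59 in untreated vector cells, and 3.93 in treated labelled DLC1 cells and 6.67 in treated vector cells. Its other sets gave -1.05 and -0.78 in untreated cells and -1.02 and -1.04 in treated ones. All 3 MCM10 sets therefore passed 1.5-fold in each state. For GINS2 the other sets differed from the one used: one gave -0.35 (untreated) and 0.06 (treated), the other -0.03 and -0.67, and with all sets averaged neither difference passed 1.5-fold (-0.37 and -0.50). Those other sets were dim, reading 0.62 to 0.79 and 0.34 to 0.54, against a floor of 0.38. GINS3 gave 0.10 (untreated) and -0.02 (treated), and GINS4 -0.23 and -0.38 in the same states. The other GINS4 set above the floor gave -0.76 (untreated), past 1.5-fold, and -0.36 (treated). CDC45, the helicase's cofactor, gave -0.55 (untreated) and -0.77 (treated), the second past 1.5-fold.

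Of the 6 core MCM genes, 3 lay below 0 in untreated cells (against 53.5% of kept genes) and 5 in treated ones (against 52%). MCM3 read 12.13 in untreated labelled DLC1 cells and 17.13 in untreated vector cells, and 8.89 in treated labelled DLC1 cells and 14.64 in treated vector cells, differences of -0.50 and -0.72. MCM4 gave -0.47 (untreated) and -0.63 (treated), but its sets ranged widely: one gave 0.06 and -0.14 in the same states, and another -0.58 and -0.80. With all sets averaged the treated difference was -0.44, short of 1.5-fold. MCM6 gave -0.19 (untreated) and -0.32 (treated). MCM2 read 6.94 in untreated labelled DLC1 cells and 6.28 in untreated vector cells, and 4.57 in treated labelled DLC1 cells and 5.17 in treated vector cells, so its 2 differences have opposite signs. MCM5 gave 0.23 (untreated) and -0.05 (treated), and its second set -0.03 and -0.36. No error can be set to the differences between the untreated arrays. There, on the sets used, subunits of one ring lay on both sides of 0: MCM3, MCM4 and MCM6 below it, and MCM2, MCM5 and MCM7 above it. The median of the 6 genes there, -0.02, turned to 0.06 with arrays centred on housekeeping genes. With sets ending in _x_at or _s_at left out it was -0.11, and 4 of the 6 lay below 0.

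Of the 4 licensing genes, 0 were lower by at least 1.5-fold in untreated cells (against 8.89% of kept genes) and 1 with TGF-beta (against 6.71%). ORC1, the largest origin recognition subunit, read 1.14 in untreated labelled DLC1 cells and 1.63 in untreated vector cells, and 0.92 in treated labelled DLC1 cells and 1.44 in treated vector cells. Its difference in treated cells, -0.65, passed 1.5-fold. ORC6 gave -0.15 (untreated) and -0.23 (treated), and CDT1 -0.08 and -0.15 in the same states. The second CDT1 set gave 0.19 and -0.05, so the side of 0 in untreated cells depends on the probe set.

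Among the clamp loader genes RFC3 was lower in both states, reading 7.07 in untreated labelled DLC1 cells and 11.61 in untreated vector cells, and 5.96 in treated labelled DLC1 cells and 9.78 in treated vector cells. Its other sets gave -0.73 and 0.10 in untreated cells and -0.77 and -0.28 in treated ones, and with all sets averaged the untreated difference was -0.45, short of 1.5-fold. The set that gave 0.10 read only 0.33 to 0.44, around the floor of 0.38. RFC2 gave -0.59 in untreated cells, just past 1.5-fold, and -0.41 in treated ones; the first fell short under quantile normalization (-0.58) and both centrings (-0.55 and -0.51). RFC4 gave -0.30 (untreated) and -0.24 (treated). RFC5 depends on the probe set: the one used gave -0.00 (untreated) and 0.06 (treated), while the others gave -0.66 and -0.59, and -0.44 and -0.61. PCNA, the clamp itself, read 46.64 in untreated labelled DLC1 cells and 52.66 in untreated vector cells, and 36.91 in treated labelled DLC1 cells and 45.81 in treated vector cells, differences of -0.18 and -0.31.

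Of the 4 nucleotide supply genes, 2 were lower by at least 1.5-fold in both states (against 5.04% of kept genes). RRM2, given above, was lower by 0.91 (untreated) and 0.97 (treated) on the log2 scale, and its second set gave -0.78 and -0.80 in the same states. TYMS, the thymidylate synthase targeted by fluorouracil, read 48.93 in untreated labelled DLC1 cells and 74.08 in untreated vector cells, and 36.53 in treated labelled DLC1 cells and 57.25 in treated vector cells. Its differences of -0.60 and -0.65 passed 1.5-fold narrowly. The untreated one did not under quantile normalization (-0.58) or either centring (-0.56 and -0.51), and neither did with all sets averaged (-0.35 untreated and -0.54 treated). That average includes a set below the floor, which gave 0.22 (untreated) and -0.17 (treated). The other TYMS set above the floor gave -0.67 and -0.80 in the same states. RRM1, the large reductase subunit, gave -0.45 (untreated) and -0.47 (treated), and its second set 0.14 and -0.23. TK1, thymidine kinase of the salvage route, gave 0.04 (untreated) and -0.04 (treated).

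Genes for finishing the lagging strand and for coating single-stranded DNA differed by little. FEN1, the flap endonuclease, read 52.1 in untreated labelled DLC1 cells and 53.32 in untreated vector cells, and 42.35 in treated labelled DLC1 cells and 45.43 in treated vector cells. LIG1, the ligase that seals the fragments, gave -0.26 (untreated) and -0.34 (treated). The replication protein A genes RPA1, RPA2 and RPA3 gave -0.22, -0.01 and -0.07 in untreated cells, and -0.30, 0.02 and -0.14 in treated ones. None of these 5 genes passed 1.5-fold, where 8.89% (untreated) and 6.71% (treated) of kept genes were lower by that much.

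The response to TGF-beta was compared in each cell type. In labelled DLC1 cells 40 of 43 members lay below 0, against 52.1% of kept genes, with a median of -0.30 (all kept genes -0.01). In vector cells it was also 40, against 54.8%, with a median of -0.23 (all kept genes -0.03). In both cell types 38 members (88.4%) lay below 0, against 36.8% of kept genes. Past 1.5-fold lay 1 in labelled DLC1 cells (against 1.06%), 0 in vector cells (against 2.91%) and 0 in both (against 0.708%). With arrays centred on housekeeping genes the counts were 9 in labelled DLC1 cells and 1 in vector cells, and the medians -0.48 and -0.33. The median of all kept genes also moved, to -0.19 and -0.13, so the member medians relative to it stayed at -0.29 and -0.20. The share of kept genes past 1.5-fold under this centring is not given here, so these counts have no background beside them. Without this centring no member was higher by 1.5-fold, against 2.31% of kept genes in labelled DLC1 cells and 3.14% in vector cells. The 2 TGF-beta differences share no array with each other, but each shares arrays with the differences between labelled DLC1 and vector cells.

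**Figure D3:**
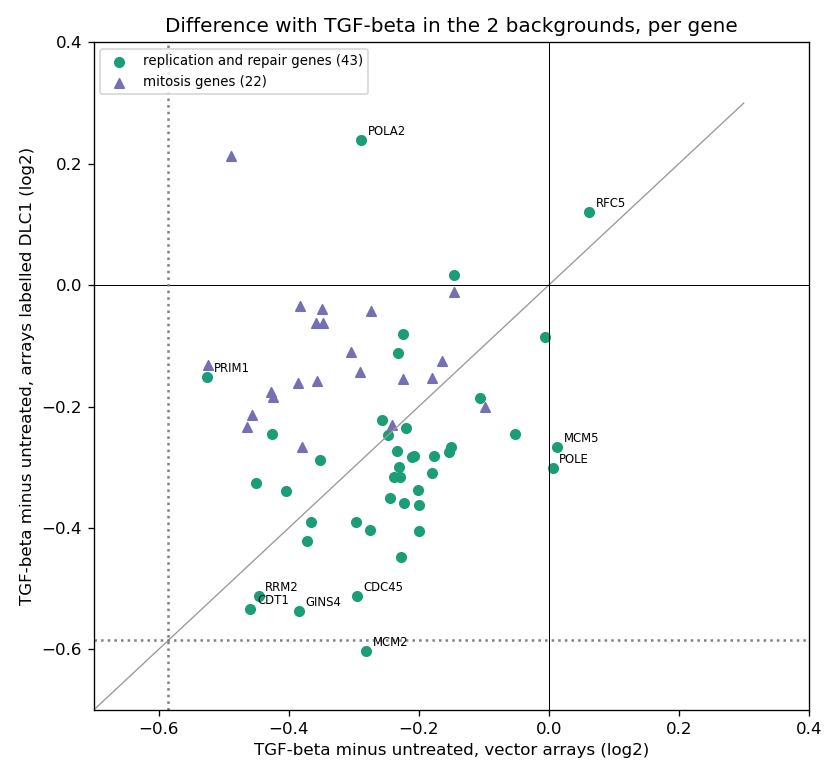
Log2 difference with TGF-beta in labelled DLC1 cells (vertical axis) and in vector cells (horizontal axis) for 43 replication and repair genes (circles) and 22 mitosis genes (triangles); the grey line marks equal differences and dotted lines 1.5-fold. Most circles lie under the line, 31 of 43, and 21 of 22 triangles above it.

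The member past 1.5-fold was MCM2 in labelled DLC1 cells, which read 4.57 with TGF-beta and 6.94 without it, -0.60. In vector cells it read 5.17 and 6.28, -0.28. CDT1, whose timed loss limits replication to once per cycle, gave -0.53 in labelled DLC1 cells and -0.46 in vector cells. In the same order RRM2 gave -0.51 and -0.45, GINS4 -0.54 and -0.38, and CDC45 -0.51 and -0.29, each farther from 0 in labelled DLC1 cells. For GINS4 this rests on the probe set used. Its other set above the floor gave -0.27 and -0.67, farther from 0 in vector cells and past 1.5-fold there. POLE2 gave -0.33 and -0.45, PRIM1 -0.15 and -0.53, and RFC2 -0.24 and -0.43, each farther from 0 in vector cells. PCNA read 36.91 with TGF-beta and 46.64 without it in labelled DLC1 cells, and 45.81 and 52.66 in vector cells.

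Members at or near 0 were few. In labelled DLC1 and vector cells RFC5 gave 0.12 and 0.06, RPA1 -0.08 and -0.00, MCM5 -0.27 and 0.01, POLE -0.30 and 0.01, and POLD3 0.02 and -0.15. For RFC5 this rests on the probe set used: its other sets gave -0.26 and -0.33, and -0.28 and -0.11, in the same order. POLA2 went opposite ways: it read 1.05 with TGF-beta and 0.89 without it in labelled DLC1 cells, and 1.67 and 2.04 in vector cells. CDC6 gave -0.25 and -0.05.

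The interaction, the difference with TGF-beta in labelled DLC1 cells minus that in vector cells, lay below 0 in 31 of 43 members, against 46% of kept genes, with a median of -0.08. All 4 licensing genes, all 6 core MCM genes, all 6 helicase activation genes and all 4 nucleotide supply genes lay below 0, with medians of -0.11, -0.19, -0.13 and -0.06. Over the alternatives these medians ranged from -0.19 to -0.09, -0.28 to -0.19, -0.21 to -0.09 and -0.19 to -0.04. Of the helicase activation genes it was 5 of 6 with all sets of a gene averaged or with sets ending in _x_at or _s_at left out. Of the 8 polymerase and primase genes, 6 lay above 0, led by POLA2 at 0.53 and PRIM1 at 0.37, with a median of 0.13 (0.05 with housekeeping centring), and 5 of 8 with housekeeping centring or without sets ending in _x_at or _s_at. The clamp and its loader had 4 of 5 above 0 and a median of 0.06, which turned to -0.03 with arrays centred on housekeeping genes and to -0.01 with all sets averaged. No error can be set to these medians. No member's interaction reached 1.5-fold in either direction (against 1.29% lower and 1.79% higher of kept genes).

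Lists of related genes were read the same way. Of 29 measured replication genes outside the members, 23 lay below 0 between labelled DLC1 and vector cells in each state, with medians of -0.29 and -0.39. By at least 1.5-fold, 8 (untreated) and 9 (treated) were lower. Of all kept genes, 53.5% and 52% lay below 0 in these states, and 8.89% and 6.71% were lower by at least 1.5-fold. DSCC1, of an alternative clamp loader, was lower by 1.06 on the log2 scale in untreated cells and read 2.79 in labelled DLC1 cells and 5.57 in vector cells with TGF-beta. The nuclease-helicase gene DNA2 was lower by 0.98 and 0.90, and DNMT1, the maintenance methyltransferase, by 0.82 and 0.90. With TGF-beta 25 of the 29 lay below 0 in labelled DLC1 cells (against 52.1% of kept genes) and 27 in vector cells (against 54.8%). HELLS, a chromatin remodeller, fell by 0.79 in labelled DLC1 cells, and POLD4 rose by 0.65 in vector cells.

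Repair genes outside the members had medians of -0.21 and -0.22 over 24 kept genes between labelled DLC1 and vector cells, and 3 of 24 were lower by at least 1.5-fold in each state, where 8.89% (untreated) and 6.71% (treated) of all kept genes were, so the count says nothing particular about the list. BRIP1, the helicase partner of BRCA1, was lower by 1.49 and 1.67 on the log2 scale, RAD51AP1 by 0.82 and 0.62, and FANCL by 0.68 and 0.75. RMI1 gave 0.53 without TGF-beta. The E2F and RB family had medians near 0 between labelled DLC1 and vector cells, 0.01 and -0.02 over 12 genes. E2F2 rose by 1.17 in untreated labelled DLC1 cells, while RBL1, RB1 and E2F5 were lower by 1.06, 0.93 and 0.85 in untreated cells and by 0.99, 0.63 and 0.60 in treated ones. With TGF-beta, E2F2 fell by 1.02 in labelled DLC1 cells and gave -0.39 in vector cells, and E2F8 fell by 0.59 in labelled DLC1 cells and by 0.69 in vector cells.

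**Figure D4:**
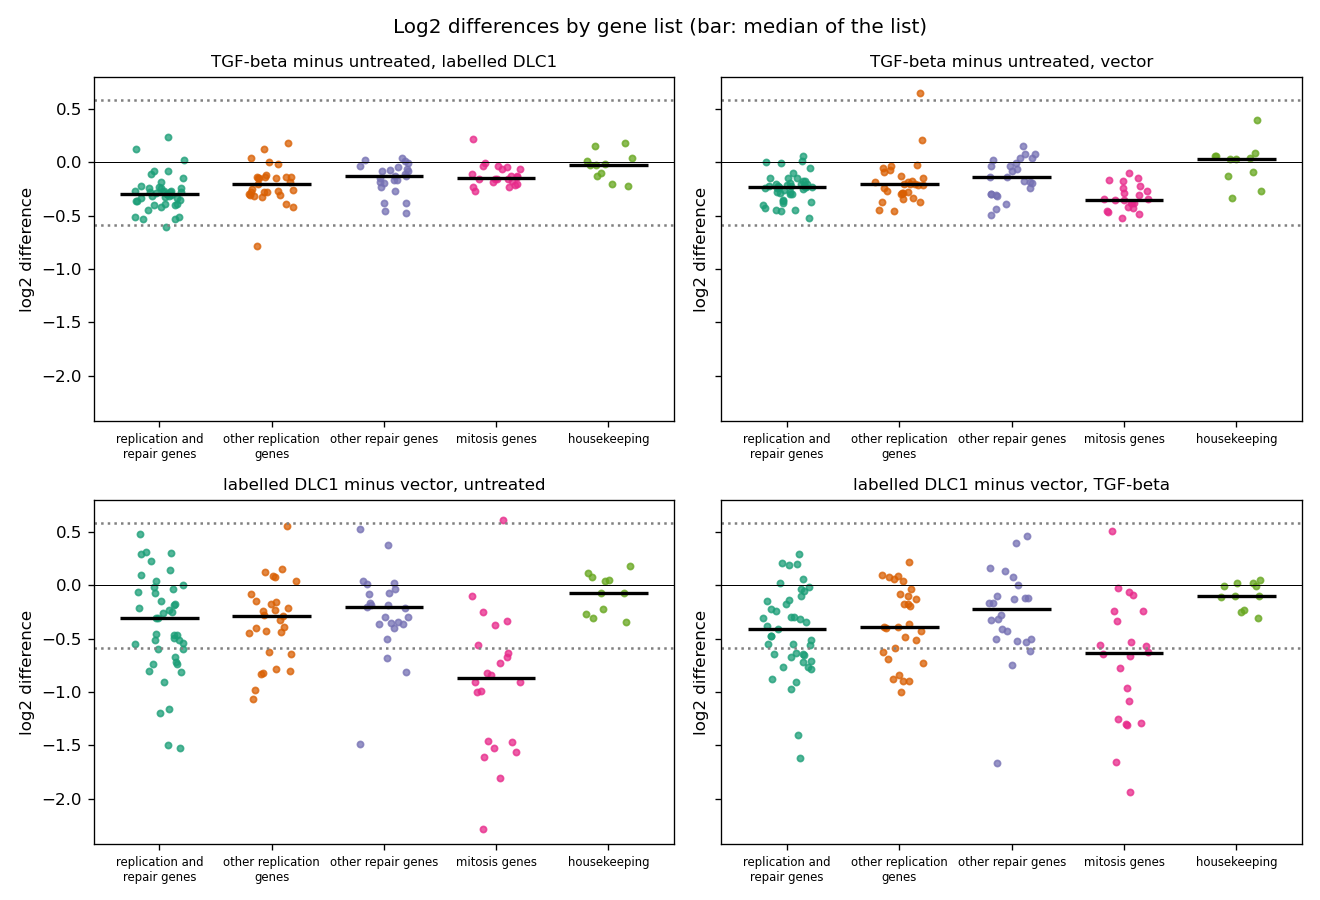
Log2 differences for 5 gene lists in the 4 comparisons, with a point per kept gene, a black bar at the list's median and dotted lines at 1.5-fold. The replication and repair genes lie at -0.30 (labelled DLC1 cells) and -0.23 (vector cells) with TGF-beta, and at -0.30 (untreated) and -0.41 (treated) between labelled DLC1 and vector cells; the mitosis genes lie at -0.15, -0.35, -0.87 and -0.64 in the same order.

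Mitosis genes, which peak later in the cycle, set the members in context. Between labelled DLC1 and vector cells their medians were -0.87 without TGF-beta and -0.64 with it, where the members had -0.30 and -0.41. Of the 22 mitosis genes, 16 and 12 were lower by at least 1.5-fold, against 8.89% (untreated) and 6.71% (treated) of kept genes. In untreated cells 1 was higher by that much, MKI67 at 0.61, against 5.84% of kept genes. In treated cells 0 were (against 5.91%), and MKI67 gave 0.51. With TGF-beta the median of the mitosis genes was -0.15 in labelled DLC1 cells and -0.35 in vector cells, where the members had -0.30 and -0.23. With housekeeping centring it was -0.33 in labelled DLC1 cells and -0.45 in vector cells, where the members had -0.48 and -0.33. Their interaction was thus above 0 in 21 of 22 genes (17 of 22 with housekeeping centring), with a median of 0.23 where the members had -0.08; with housekeeping centring these were 0.14 and -0.16. Whether the 2 lists differ was not tested, since each group has 1 array and genes of a list are not independent. The 11 measured housekeeping genes had medians between -0.10 and 0.03 in the 4 comparisons, but single ones spread wider. With TGF-beta they ran from -0.22 to 0.18 in labelled DLC1 cells and from -0.34 to 0.39 in vector cells. Between labelled DLC1 and vector cells they ran from -0.34 to 0.18 (untreated) and from -0.31 to 0.05 (treated). The member medians lie within these ranges in all but 2 places: -0.30 with TGF-beta in labelled DLC1 cells and -0.41 between treated cells.

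RNA quality differed in some of these comparisons. The 3' to 5' gap of the beta-actin control sets was 3.03 in labelled DLC1 cells and 2.83 in vector cells with TGF-beta, and 3.11 and 3.26 without it, so it was 0.43 smaller with TGF-beta in vector cells. The GAPDH gap stayed between 0.35 and 0.39 on the 4 arrays. The 5' set of 18S ribosomal RNA was higher in labelled DLC1 than in vector cells, by 0.84 without TGF-beta and 0.35 with it. Their part in the members' differences was not tested. Across the 43 members the difference between labelled DLC1 and vector cells had a rank correlation of 0.16 with mean level without TGF-beta and 0.17 with it, a description over genes that share the same arrays.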

How the data were processed

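Total RNA of SCP2 cells, extracted with Trizol and reverse-transcribed from oligo-dT primers per the labels' protocols, was measured on 4 arrays. The deposited table holds intensities on a linear scale, from 0.05 to 265.58. The submitters' processing notes name RMA, per the labels; the sources used here give neither its settings nor the divisor of the scale. Since RMA normally gives arrays the same distribution, a shift in all genes at once is invisible. Labels gave the groups, 1 array each, and so few arrays limit the precision.

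Of 42898 annotated probe sets, 41097 have 1 symbol and 1801 several; sets with 1 symbol were used, and the highest mean intensity chose a gene's set. A gene was kept if its highest value reached the median of all values, 0.38. Differences of log2 values were described by counts past 1.5-fold and medians, with no test. The members and lists were chosen with earlier results of these data known. All members are named; per comparison the 5 highest and 5 lowest, the 3 brightest, those past 1.5-fold in both separate differences, and up to 4 of the biggest per other list guided the text. Alternatives covered scaling, filter, probe sets, an offset and a 2-fold rule. The calling rule was tried on simulated data, with no result given here, and this sets no error to any difference. Python 3.11.15, numpy 2.4.6, pandas 2.3.3 and scipy 1.17.1 were used. Probe symbols come from GEO's platform annotation and promoters from RefSeq.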

Additional observations from a re-analysis of the deposited data

Results flagged for a closer look

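The difference between POLA2's responses to TGF-beta was 0.53 on the log2 scale: the gene gave 0.24 in labelled DLC1 cells and -0.29 in vector cells. It stands out because the 2 cell types moved in opposite directions by at least 0.1 each. The difference was not tested, since each group has 1 array, and the other POLA2 set above the floor gave -0.31 and -0.03. That set read only 0.46 to 0.57, close to the floor of 0.38.

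MCM2 stands out in the same way in the difference between labelled DLC1 and vector cells, which was -0.18 with TGF-beta and 0.14 without it, a gap of -0.32 that was not tested.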

How the results depend on the processing

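No paired analysis was possible because each group has 1 array, and no replicate could be left out. Under the 8 processing alternatives, other than the 2-fold rule, the member medians stayed below 0 in all 4 comparisons and in the interaction, and relative to the median of all kept genes they stayed between -0.40 and -0.18 in the 4 comparisons. Centring on housekeeping genes took the median of all kept genes with TGF-beta to -0.19 in labelled DLC1 cells and -0.13 in vector cells. There the member median in labelled DLC1 cells was -0.48, and members lower with TGF-beta numbered 9 in labelled DLC1 cells and 1 in vector cells. The share of all kept genes called under that centring is not given here. Leaving out sets ending in _x_at or _s_at made the count in labelled DLC1 cells 2. With 2-fold as the rule, counts were 0 for TGF-beta in labelled DLC1 cells, 4 and 2 for labelled DLC1 against vector without and with TGF-beta, and 2 in both states. Without sets ending in _x_at or _s_at, POLA2 gave 0.28 without TGF-beta and GINS2 gave 0.060 with it, both on the other side of 0. The sets of these genes disagree, but those used in this alternative were dim, reading 0.46 to 0.57 and 0.62 to 0.79. Of all other member values, 1343 kept their side of 1.5-fold, 19 dropped under it and 12 rose past it. The lower count in both states ranged from 8, with all sets of a gene averaged, to 11. TYMS without TGF-beta ranged from -0.60 to -0.35.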
